A study of Elaeis guineensis with 2 samples.

Results

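Of the peaks called in oil palm fruit with an antibody against EgAGL9, 2809 were the one peak on their scaffold. They make up 2809 of the 7919 peaks in the deposited list (35.5%, exact 95% binomial interval 34.4 to 36.5%) and 2809 of the 6208 peaks on scaffolds (45.2%, 44.0 to 46.5%). They were chosen by position within the list: the name of the sequence starts with NW_, which marks scaffolds, and no other peak of the list lies on the same sequence. The rule itself uses no enrichment value. Which sites are listed, and so which peaks are alone, does depend on the significance limit of the call. The 2 libraries of the series came from fruit of Elaeis guineensis, the African oil palm (cultivar given as Jacq), both with the genotype EgAGL9 overexpression. In 1 library chromatin was immunoprecipitated with the EgAGL9 antibody, and the other was input without antibody. What drove the overexpression, the fruit stage and the number of palms are not given in the sources used here, and fruit with normal EgAGL9 or a control antibody was not analysed here. The peaks of the series were called once, on the immunoprecipitate against the input, so no peak has a replicate check and binding cannot be told apart from unspecific enrichment.

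EgAGL9 is named for AGL9 of Arabidopsis, also called SEPALLATA3, a MADS-domain transcription factor that acts with other MADS proteins in floral organ identity. MADS-domain proteins bind DNA in pairs and larger complexes, at short A- and T-rich sites known as CArG boxes, and related factors in other plants take part in fruit ripening. A scaffold is a stretch of assembled genome that was not joined into a chromosome. In draft plant genomes, small scaffolds often hold repeats, which are hard to place. Peaks were not assigned to genes here, and scaffold lengths were not used here. The end of a peak gives a lower bound on the length of its scaffold.

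Single peaks lay mostly near the start of their scaffold. Scaffolds with any peak numbered 3909, and 2809 of them held just 1 (71.9%, 70.4 to 73.3%). The peak ended before position 5000 on 1624 of them (57.8%, 56.0 to 59.6%) and at 5000 or beyond on 1185. Peaks of scaffolds with several peaks ended before position 5000 in 568 of 3399 cases (16.7%, 15.5 to 18.0%). A scaffold with several peaks has to reach past its later ones, so this contrast is set in part by the rule. On scaffolds with exactly 2 peaks the lower quartile of the peak end was 1982, against 1199 for single peaks. The summit, the base of highest enrichment, was under 1000 bp from the start in 694 of the 2809 single peaks (24.7%, 23.1 to 26.3%), and all 694 ended before position 5000. The median peak end was 2781 (order-statistic 95% interval 2501 to 3019), and the range ran from 205 to 1115189. Ends under 10000 were found in 1891 (67.3%), and ends of 100000 or more in 218 (7.76%).

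Counted per kb of distance from the scaffold start, single peaks were dense up to 2.5 kb and sparse beyond. The 112 summits in the first 250 bp correspond to 448 per kb, and the 244 in the next 250 bp to 976 per kb. From 500 to 1000 bp there were 338, or 676 per kb, and from 2000 to 2500 bp 181, or 362 per kb. From 2500 to 5000 bp the density was 101 per kb, from 5000 to 10000 bp it was 50.8, and from 20000 to 50000 bp it was 10.5. The number of scaffolds long enough to hold a peak at each distance is not known here, so a preference for the start cannot be told apart from there being many short scaffolds.

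**Figure D1:**
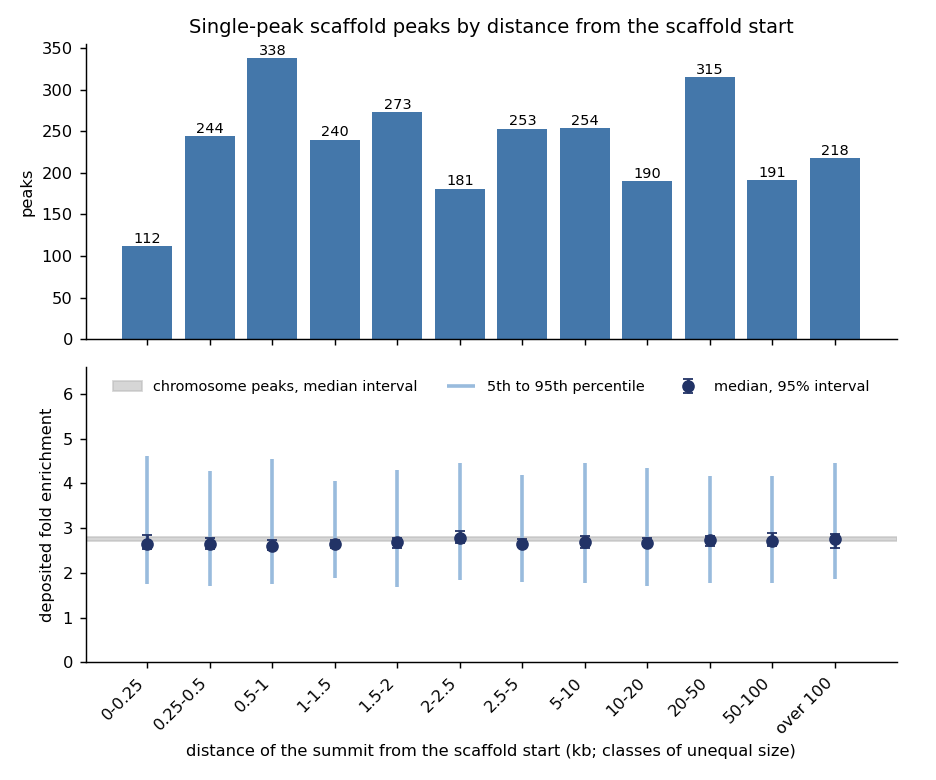
Number of single-peak scaffold peaks (top) and their deposited fold enrichment (bottom) by distance of the summit from the scaffold start in kb, in classes of unequal size. Points are medians with order-statistic 95% intervals, pale lines run from the 5th to the 95th percentile, and the grey band is the interval of the chromosome median (2.71 to 2.81); medians in the 12 classes ran from 2.61 to 2.78.

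The numbers in the scaffold names followed the placement of the peaks. The 3909 peak-bearing scaffolds were ordered by the number in their name and split into 10 groups of 390 or 391. The share with a single peak was 21.5% in the first group (84 of 391, 17.5 to 25.9%), 45.8% in the second, 75.2% in the fourth and 90.3% in the eighth (353 of 391, 86.9 to 93.0%). The median peak end of the single peaks fell with the order in every step, from 242748 in the first group over 14336 in the fifth to 1303 in the tenth. The farthest peak end was 1115189 in the first group and 5297 in the tenth. Across the 2809 scaffolds the Spearman correlation of name order with peak end was -0.73, given as a description. The groups late in the order thus hold single peaks within a few kb of the start.

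The enrichment values showed no such order. Median fold in the 10 groups lay between 2.60 and 2.76, and the correlation of name order with fold was -0.021. With the expected pileup from the input it was 0.012. The median fold was 2.75 (2.53 to 2.95) in the first group and 2.69 (2.60 to 2.79) in the tenth, where 99.7% of peaks ended before position 5000.

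**Figure D2:**
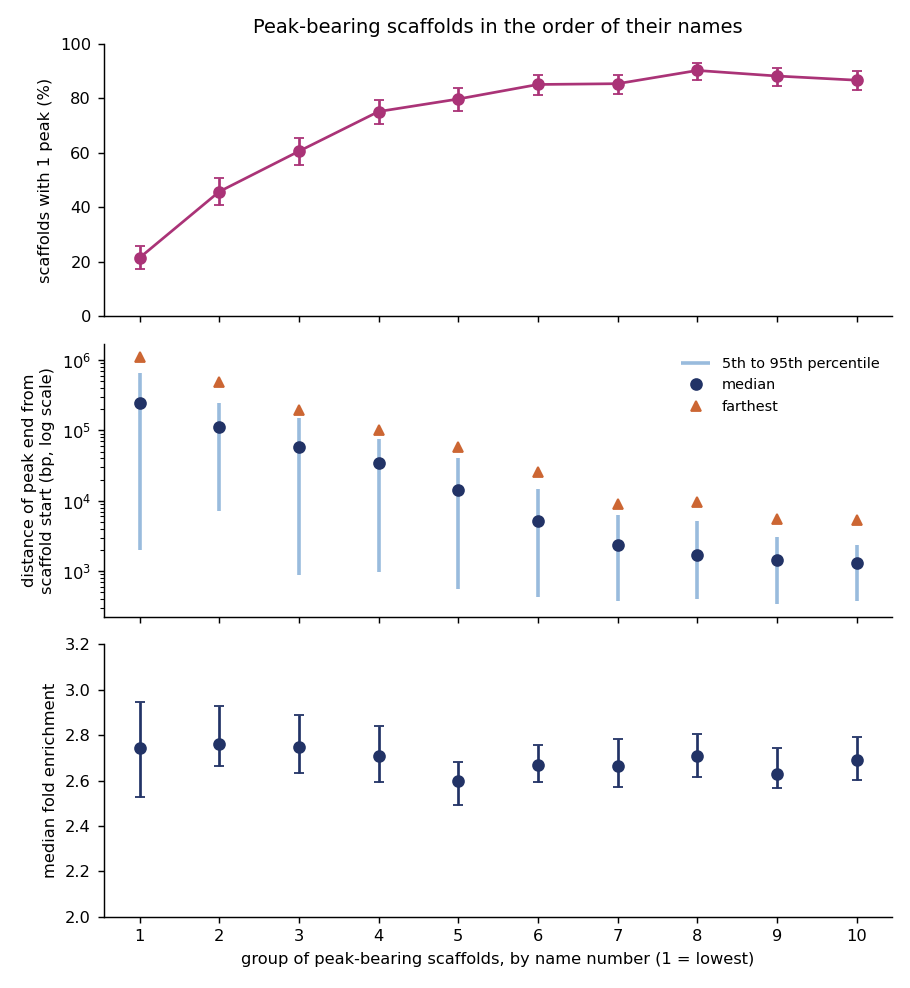
Peak-bearing scaffolds in 10 groups by the number in their name: the percentage with 1 peak with its exact 95% interval (top), the distance of the single peak's end from the scaffold start in bp on a log scale (middle) and the median deposited fold with its 95% interval (bottom). The share rose from 21.5% to 86.7% and the median end fell from 242748 to 1303, while the median fold stayed between 2.60 and 2.76.

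The enrichment of the single peaks was modest. Fold enrichment is the authors' value, a linear ratio of the immunoprecipitate pileup (fragments over the summit base) to the pileup expected from the input. The ratio is taken with 1 added to both pileups, which lowers the fold most at shallow sites. The median over the 2809 peaks was 2.68 (2.65 to 2.72), against 2.66 (2.64 to 2.68) over the whole list. The 5th and 95th percentiles were 1.77 and 4.39, the lowest fold was 1.15 and the highest 7.18, which is also the highest of the list. The authors' −log10 q, the significance at the summit, had a median of 5.97 (5.72 to 6.27) and a range from 1.31 to 309. The authors' −log10 p had a median of 9.16 (8.90 to 9.49). Median width was 267 bp (264 to 272), with a range of 191 to 1244 bp, and 36 peaks had the shortest width of 191 bp.

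Folds of 5 or more were seen in 54 single peaks (1.92%, 1.45 to 2.50%), where the whole list had 1.7%. Folds of 4 or more were seen in 245 (8.72%, 7.70 to 9.83%), against 8.26% of the whole list. A −log10 q of 5 or more belonged to 1637 (58.3%), against 61.5% of the list. The shares with a high fold were near those of all peaks, and the share with a high −log10 q was below that of the list but close to the 58.2% of chromosome peaks (996 of 1711). A fold under 2 was found in 349 single peaks (12.4%, 11.2 to 13.7%), against 12.9% of the whole list.

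The peaks that ended before position 5000 and those that ended farther along had like values. Median fold was 2.66 (2.62 to 2.71) in the 1624 early peaks and 2.71 (2.66 to 2.76) in the 1185 late ones, a difference of -0.051, early minus late. The interval of that difference, from -0.12 to 0.017, includes 0. Median −log10 q was 5.99 (5.65 to 6.43) early and 5.94 (5.63 to 6.40) late, a difference of 0.048 (-0.52 to 0.59). Median −log10 p was 9.19 early and 9.14 late. Median width was 270 bp (265 to 274) early and 264 bp (256 to 272) late. The 2 intervals overlap for each of these measures. These intervals take each peak as an independent draw and say nothing of the spread between samples, and no test between classes of peaks was made, since peaks of 1 list are not replicates.

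Folds of 5 or more were seen in 36 early peaks (2.22%, 1.56 to 3.06%) and 18 late ones (1.52%, 0.903 to 2.39%). Folds of 4 or more were seen in 143 (8.81%) and 102 (8.61%). The intervals of the early and late shares overlap.

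Peaks with the summit in the first 1000 bp were much like the others. Their median fold was 2.62 (2.55 to 2.70, n = 694), against 2.70 (2.66 to 2.74, n = 2115) for summits farther along. Median −log10 q was 6.30 and 5.92, with intervals that overlap, and median width 275 bp (266 to 285) and 266 bp (260 to 270). Folds of 5 or more were found in 17 of the 694 (2.45%, 1.43 to 3.89%) and in 37 of the 2115 (1.75%, 1.23 to 2.40%). Over all 2809 single peaks the Spearman correlation of summit position was 0.031 with fold, 0.0019 with −log10 q and -0.035 with width.

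Peak shape differed at the very start of the scaffold. The summit's place within its peak, from 0 at the peak start to 1 at its end, had a median of 0.33 (0.29 to 0.38) in the 112 peaks with the summit in the first 250 bp. In the next 250 bp the median was 0.53 (0.49 to 0.57), and over all single peaks 0.49 (0.48 to 0.50), as on chromosomes (0.49, 0.47 to 0.50). A summit so close to the start leaves little room before it, so a low value there is set in part by the position itself. Those 112 peaks had a median width of 251.5 bp (235 to 268), and 19 single peaks started within the first 50 bp.

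The input behind single peaks was raised at most sites. The expected pileup, recovered from the deposited fold and p, had a median of 19.5 fragments (17.6 to 20.8), which is 8.26 times (7.47 to 8.85) the lowest level of the list, 2.36 fragments. That lowest level is called here the genome-wide level, and multiples of it depend on settings of the call that are not given. The immunoprecipitate pileup had a median of 51 fragments (48 to 55) and a range of 10 to 3023. At 497 single peaks (17.7%, 16.3 to 19.2%) the input value was no more than 2 times the genome-wide level, against 16.8% of the whole list. It exceeded 10 times that level at 1248 (44.4%), against 48.0% of the list. It exceeded 100 times at 84 (2.99%, 2.39 to 3.69%), against 3.88% of the list. Early and late peaks were alike in this too, with medians of 8.26 times (7.47 to 9.22) and 8.06 times (7.08 to 9.05) the level.

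Fold was highest where the input was lowest. Across the single peaks the Spearman correlation of fold with expected pileup was -0.70, and on chromosomes it was also -0.70. Since fold is a quotient over the expected pileup, and weak sites at low input fail the authors' limit, a negative value is built in. In the lowest of 10 equal bins of the whole list by expected pileup, 273 single peaks had a median fold of 3.97 on a median of 14 immunoprecipitate fragments. In the highest bin, 223 single peaks had a median fold of 2.14 on 435 fragments. Of the 54 single peaks with a fold of at least 5, 44 lay where the input was at most 2 times the genome-wide level. Over the whole list it was 108 of 135, a like share. The pileups of all 54 single peaks ran from 16 to 81 fragments. The 349 with a fold under 2 had pileups of 31 to 3023 and expected pileups from 6.49 to 771 times the level.

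Against chromosome peaks, the single peaks had a slightly lower median fold over all input levels. The chromosome median was 2.76 (2.71 to 2.81, n = 1711), and the difference, single minus chromosome, was -0.084 (-0.14 to -0.016). As a mean of the differences within the 10 bins of expected pileup it was -0.014, with single peaks above chromosome peaks in 3 bins and below in 7, over a range of -0.14 to 0.17. The interval took in 0 among peaks with a −log10 q of 5 or more (-0.029, -0.10 to 0.037), with that limit applied before the single-peak rule (-0.022, -0.092 to 0.040) and among peaks with the fragment-size window (-0.027, -0.086 to 0.018). With summits under 1000 bp apart counted as 1 site, the difference was -0.094 (-0.15 to -0.030), an interval that leaves out 0. Folds of 4 or more were seen in 168 of the 1711 chromosome peaks (9.82%, 8.45 to 11.3%), and folds of 5 or more in 30 (1.75%, 1.19 to 2.49%). Median −log10 q on chromosomes was 6.29 (5.83 to 6.81), width 270 bp (265 to 275) and expected pileup 7.47 times the level (7.08 to 8.46). The intervals of these 3 medians overlap those of the single peaks.

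**Figure D3:**
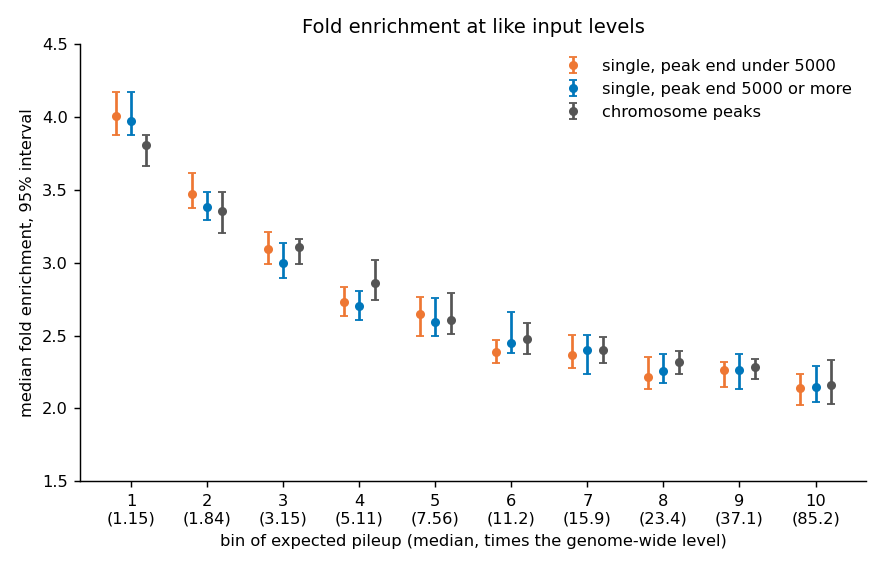
Median deposited fold enrichment with order-statistic 95% intervals in 10 equal bins of the whole list by expected pileup, whose median multiple of the genome-wide level stands in brackets, for early single peaks, late single peaks and chromosome peaks. Medians fell from 4.01, 3.97 and 3.80 in bin 1 to 2.14, 2.14 and 2.16 in bin 10, and the vertical axis starts at 1.5.

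Peaks on scaffolds with several peaks had more input and a higher −log10 q than the single peaks. Their median expected pileup was 11.4 times the level (10.6 to 12.0, n = 3399), above the interval of the single peaks. Their median −log10 q was 7.74 (7.36 to 8.01) and their median fold 2.61 (2.58 to 2.64). An expected pileup over 100 times the level was found in 173 of them (5.09%, 4.38 to 5.88%), against 2.99% of the single peaks. Just outside the rule, the 1260 peaks of the 630 scaffolds with exactly 2 peaks had a median fold of 2.58 (2.53 to 2.62), a median −log10 q of 8.19 (7.80 to 8.84) and a median expected pileup of 12.5 times the level (11.4 to 13.8). Their peak ends had a median of 22786.5 (19038 to 26787), against 2781 for single peaks. The −log10 q rose with the expected pileup, with a Spearman correlation of 0.66 in single peaks and 0.70 on chromosomes. More input and a higher −log10 q are therefore not separate signs.

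Single and chromosome peaks were also compared by the input window that set the expected pileup. MACS2 takes the largest of the genome-wide level and of the input counted in a fragment-size window, a window of 1000 bp and one of 10000 bp around the site. The step of each window leaves its mark in the value, so the window could be told for 7918 of the 7919 peaks. The fragment-size window set it at 2487 single peaks (88.5%, 87.3 to 89.7%), the window of 1000 bp at 205 (7.30%, 6.36 to 8.32%) and the genome-wide level at 102 (3.63%, 2.97 to 4.39%). On chromosomes the shares were 85.0% (83.2 to 86.6%), 7.13% (5.96 to 8.45%) and 3.92% (3.05 to 4.95%).

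The window of 10000 bp set the expected pileup at only 15 of the 2809 single peaks (0.534%, 0.299 to 0.879%). On chromosomes it did so at 68 of 1711 (3.97%, 3.10 to 5.01%), and on scaffolds with several peaks at 53 of 3399 (1.56%, 1.17 to 2.03%). None of these 3 intervals overlaps another. On scaffolds with exactly 2 peaks, the most similar set, it was 11 of 1260 (0.873%, 0.437 to 1.56%), which overlaps the interval of the single peaks. Among single peaks it was 4 of 1624 early ones (0.246%, 0.0671 to 0.629%) and 11 of 1185 late ones (0.928%, 0.464 to 1.65%), intervals that overlap. With the summit in the first 1000 bp it was 0 of 694, which allows a share of up to 0.432% by a limit of 3 counts and 0.530% by the exact interval. Such a window around an early summit runs past the scaffold start, and around any summit of a short scaffold past its end. Whether this lowered the expected pileup was not tested.

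The bin of lowest input is where that window mattered most. There it set the expected pileup at 59 of 236 chromosome peaks and at 11 of 273 single peaks (4.03%), while the genome-wide level set it at 67 (28.4%) and 102 (37.4%). In that bin the median fold was 3.97 (3.87 to 4.10) in single peaks and 3.80 (3.66 to 3.87) in chromosome peaks, the largest difference among the 10 bins in favour of single peaks. Its median was 4.01 in the 149 early peaks and 3.97 in the 124 late ones. The part of the window in the higher fold was not tested.

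**Figure D4:**
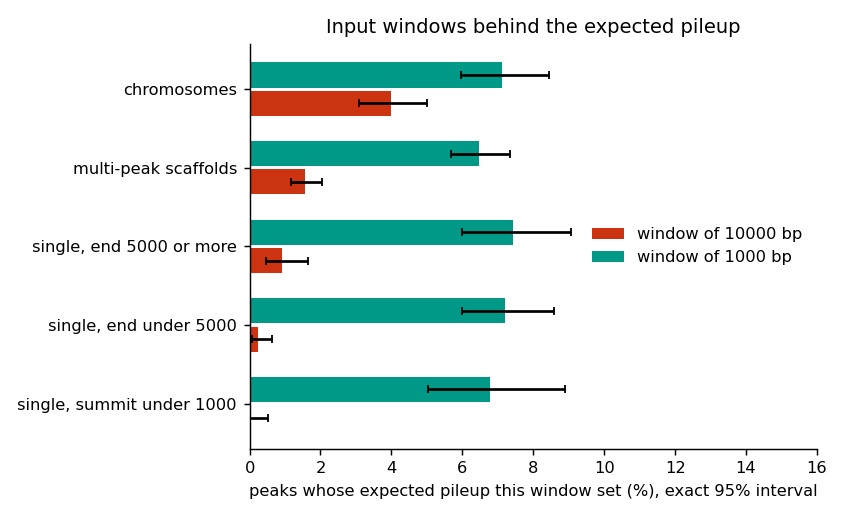
Percentage of peaks at which the expected pileup came from the input window of 10000 bp or of 1000 bp, with exact 95% intervals, for 5 sets of peaks (the peaks with the summit under 1000 are a subset of those with the end under 5000). The share of the window of 10000 bp was 3.97% on chromosomes, 0.928% in late and 0.246% in early single peaks and 0 with the summit in the first 1000 bp, while that of the window of 1000 bp lay between 6.47% and 7.43%.

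The single peaks with the highest −log10 q lay where both libraries were very deep. The 8 highest had immunoprecipitate pileups of 1170 to 2744 fragments, input values of 142 to 557 times the genome-wide level and folds of only 2.09 to 3.62, and 5 of them ended before position 5000. Ratios given for single sites are scaled for library depth, leave out the 1 added in the fold and carry exact Clopper-Pearson 95% intervals. Input fragments at these sites are steps of the input value, each taken as 1 fragment. The intervals cover counting error only. They are too narrow if duplicate reads were kept or if a step is a read end, which is not known. The site with the highest −log10 q, 309, was peaks3781 on NW_011551738.1 (101388 to 101737). It had 1279 immunoprecipitate against 762 input fragments, a ratio of 3.62 (3.31 to 3.97).

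The second, peaks2177 on NW_011550976.1 (874027 to 874420), had a ratio of 3.33 (3.04 to 3.64), from 1265 against 821 fragments. It is also the third farthest from a scaffold start. The third, peaks5112 on NW_011553827.1 (1807 to 2580), had a ratio of 2.88 (2.67 to 3.11), from 1559 against 1169. The fourth, peaks7411 on NW_011582812.1 (1130 to 2117), was 988 bp wide and had a ratio of 3.50 (3.19 to 3.84), from 1170 against 722. Of these 4 sites, the third had the lowest ratio, with an interval below those of peaks3781 and peaks7411.

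The deepest of the 8 was peaks5020 on NW_011553567.1 (134 to 355), where 2744 fragments stood against 2834 of the input, a ratio of 2.09 (1.98 to 2.20). Its summit, at 250, is close to the scaffold start. The remaining 3 were peaks4722 on NW_011552894.1, peaks4401 on NW_011552376.1 and peaks6740 on NW_011570575.1, with ratios of 2.46, 2.67 and 2.81. In all, 27 single peaks (0.961%) had a pileup of at least 1000 fragments, against 1.33% of the whole list. Of these 27, 14 were early and 13 late, and their folds ran from 1.15 to 3.62 with a median of 2.28.

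The single peaks with the highest fold were shallow sites at low input. The 8 highest had folds of 6.35 to 7.18 on 21 to 28 immunoprecipitate fragments, an input value of 1 to 1.39 times the genome-wide level and −log10 q of 10.4 to 13.7. None of them was among the 8 with the highest −log10 q, and 5 ended before position 5000. At the top stood peaks6962 on NW_011574803.1 (524 to 964), where 24 fragments met 2.48 expected. It was followed by peaks6255 on NW_011562353.1 (124 to 428), with 23 against 2.36 and a fold of 7.15, and by peaks7791 on NW_011589091.1 (3550 to 3831), with 23 against 2.39 and a fold of 7.07.

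The fourth, peaks7732 on NW_011588105.1 (1386 to 1636), had 28 fragments against 3.28 expected and a fold of 6.78. The fifth, peaks6186 on NW_011561214.1 (4731 to 5251), was compared with the genome-wide level itself and had a fold of 6.56 on 21 fragments. The sixth, peaks4463 on NW_011552463.1 (118303 to 118516), had a fold of 6.48 on 25 fragments. At 4 of these 6 sites the window of 1000 bp set the expected pileup, and at the other 2 it was the genome-wide level.

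The seventh and eighth shared the same counts, 23 immunoprecipitate against 6 input fragments, and a fold of 6.35. They were peaks3711 on NW_011551669.1 (156694 to 156977) and peaks4987 on NW_011553495.1 (57 to 329), one far from and one at the scaffold start. Their depth-scaled ratio of 8.28 had an interval of 3.28 to 24.9, so at this depth a single fold is known only within several-fold. Choosing peaks by the highest fold favours values that are too high.

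**Figure D5:**
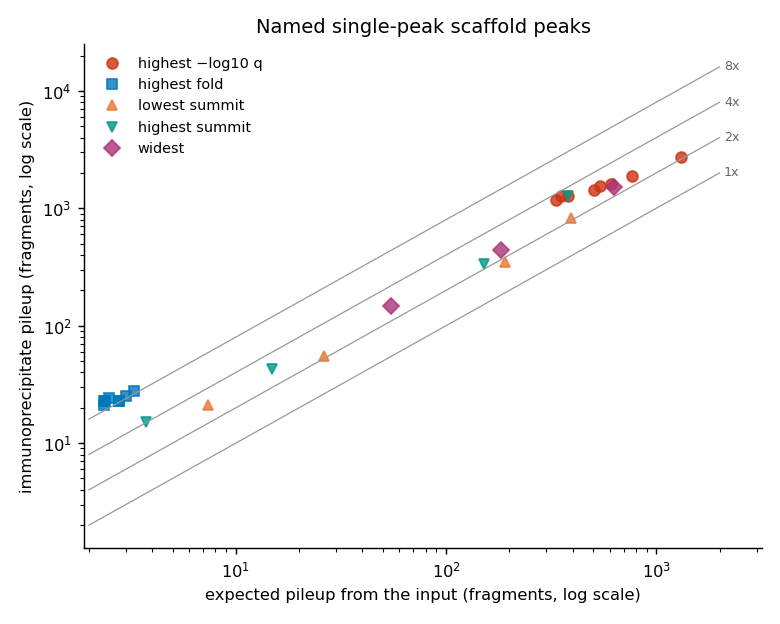
Immunoprecipitate pileup against expected pileup, both in fragments on log scales, for the single peaks with the highest −log10 q, the highest fold, the lowest and highest summit positions and the largest widths. Grey lines mark plain ratios of 1, 2, 4 and 8, without the 1 added to both pileups in the fold. The shallow, high-fold peaks sit at 21 to 28 fragments, those with the highest −log10 q at 1170 to 2744, and the 2 sets do not mix.

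The 4 summits nearest to a scaffold start lay at positions 76 to 101. The nearest, in peaks7178 on NW_011578730.1 (29 to 419), had a ratio of 1.80 (1.56 to 2.09), from 346 against 414 fragments. The next, in peaks7180 on NW_011578755.1 (60 to 443), had 55 against 57 and a ratio of 2.08 (1.41 to 3.07). In peaks5272 on NW_011554307.1 (24 to 247) 832 stood against 851, a ratio of 2.11 (1.92 to 2.33). The last, peaks7166 on NW_011578564.1 (86 to 335), had 21 against 16, a ratio of 2.83 (1.41 to 5.81). Their depths spanned 21 to 832 fragments, and their ratios were modest throughout.

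The 4 summits farthest from a start lay at 1114930, 1087055, 874206 and 716674. The farthest, peaks2121 on NW_011550963.1 (1114809 to 1115189), had a ratio of 2.20 (1.88 to 2.57), from 334 against 328 fragments. The second, peaks2087 on NW_011550955.1 (1086843 to 1087079), had a fold of 3.39 on 15 fragments, against 3.72 expected. The third is peaks2177, given above, and the fourth, peaks2176 on NW_011550975.1 (716608 to 716921), had 43 against 32 and a ratio of 2.90 (1.79 to 4.74). Each of these 4 scaffolds thus reached at least as far as its summit and held a single called peak.

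The 3 widest single peaks all ended before position 5000, as did 57.8% of all single peaks. They were peaks7472 on NW_011583979.1 (882 to 2125, 1244 bp), peaks7041 on NW_011576259.1 (1738 to 2948, 1211 bp) and peaks6473 on NW_011566371.1 (302 to 1334, 1033 bp). The first is also the widest peak of the whole list. Their folds were 2.41, 2.39 and 2.64, on 1516, 438 and 146 immunoprecipitate fragments. A width of at least 500 bp was found in 162 single peaks (5.77%, 4.93 to 6.69%), against 6.72% of the whole list. On chromosomes it was 120 peaks (7.01%, 5.85 to 8.33%), an interval that overlaps that of the single peaks. Early and late single peaks had like shares, 5.91% (4.81 to 7.17%) and 5.57% (4.33 to 7.03%).

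The peaks nearest to the position limits on either side are given as a description. Just under the limit of 5000, peaks6818 and peaks6848 ended at 4996 and 4967, with folds of 2.87 and 2.63 and −log10 q of 12.4 and 14.1. Just over it, peaks4673 and peaks6096 ended at 5003 and 5007, with folds of 1.81 and 3.81 and −log10 q of 1.38 and 5.70. At the limit on the summit, peaks7253 and peaks5840, at 999 and 1000, had folds of 5.37 and 2.04. On the far side, peaks6429 and peaks7881, at 1001 and 1002, had folds of 2.83 and 2.18. The limit counts positions from 0, so a summit printed as 1000 falls under it.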

How the data were processed

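The deposited data are 1 peak list without a header, called once on the immunoprecipitate against the input. The submitters' processing notes name MACS2 2.1.1, BWA 0.7.8, ChIPseeker, HOMER and FastQC, with no role given. The call's parameters and the genome build are not given in the sources used here. Per peak, the authors deposited the fold enrichment (a linear ratio), −log10 p and −log10 q at the summit, and a score equal to 10 times the −log10 q, rounded down, in all 7919 peaks. Positions are printed 1-based. The list does not give the libraries' read depths.

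Scripts ran in Python 3.11.15 with numpy 2.4.6, pandas 2.3.3 and scipy 1.17.1. The whole pileup at which the deposited fold (pseudocount 1) and Poisson p both held was found for 7919 of 7919 peaks, with a largest residual of 0.029 of the change 1 more fragment makes. The recovery was tested on simulated peaks. Expected pileups were assigned to windows by their steps, 0.463 for the fragment size, 0.0886 for 1000 bp and 0.00886 for 10000 bp, within 0.004, 0.002 and 0.0005 plus the rounding of the fold. The first step would be the weight of a single input fragment in an input 2.16 times as deep as the immunoprecipitate. Whether it counts fragments or read ends is not known. Shares carry exact binomial intervals, medians order-statistic intervals and differences of medians intervals combined from those by the MOVER method, all at 95%.

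Named peaks were the 8 highest by −log10 q and by fold, the 4 lowest and 4 highest summits, the 3 widest and the 2 nearest on each side of both limits. The peaks, limits and alternatives were chosen with earlier results of these data known. The planned descriptions of genes and CArG boxes near the peaks were not made, as a genome of the list's sequences was not used here.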

Additional observations from a re-analysis of the deposited data

How the results depend on the processing

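Of 49 values under alternative settings, 33 moved by less than the interval of the value reported (a count, by less than 1.5 times). At a −log10 q of 5 or more, the single peaks numbered 1637, with a median −log10 q of 11.1 and a median expected pileup of 35.2 fragments, both raised by that choice itself. The early minus late differences then were -0.65 in −log10 q and -4.69 fragments in expected pileup, the opposite direction from the values reported, though both intervals include 0. Applying that limit before the single-peak rule gave 1954 peaks, 317 of them on scaffolds with several peaks in the full list, of which 52.2% ended before 5000 and 22.7% had the summit under 1000. Counting summits under 1000 bp apart as 1 site gave 2929. Peaks wider than the list's median of 273 bp had a median fold of 2.56, a median −log10 q of 6.68, an expected pileup of 25.5 and an early minus late difference in expected pileup of -3.24. The mean over the 10 bins of expected pileup was 2.72 for fold and -0.014 for the difference from chromosomes. In alternatives chosen after seeing the data, peaks with the fragment-size window had a median fold of 2.60, a median −log10 q of 6.70 and an expected pileup of 23.2, and single peaks with the summit at 5000 or beyond differed from chromosomes in fold by -0.053 (-0.12 to 0.025). The early minus late differences changed sign in 8 cases, and their intervals include 0 in the values reported, so no direction is told for them. The causes were not tested. The alternative on the distance to the nearer scaffold end was not run. No paired analysis was possible because the series has 1 immunoprecipitate and 1 input. Depth limits single folds at low input.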
